A study of Mus musculus with 31 samples.

Results

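The genes described here are 40 components of the actin cytoskeleton and of focal adhesions, chosen by name: 3 actins, 4 crosslinkers and bundlers, 6 members of the calponin and transgelin family with caldesmon, 5 chains of non-muscle myosin II, 4 tropomyosins, 7 focal adhesion and stress fibre proteins, 4 proteins of actin turnover, 3 ezrin-radixin-moesin (ERM) linkers, and 4 regulators, namely the kinase genes Rock1 and Rock2, the formin gene Diaph1 and the transcription factor gene Srf. They are 40 of 55487 genes in the table of spheroids given macrophage medium, of 56980 in the table comparing 2D and 3D culture, and of 56941 in the table of overexpressing cells (the rescue table), and all 40 passed the filter on low counts in each table.

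Actin monomers polymerise into filaments, which myosin II pulls on and tropomyosins coat, and focal adhesions tie the bundled filaments (stress fibres) through integrins to the extracellular matrix. The kinases ROCK1 and ROCK2 promote the contraction of these bundles, and the formin DIAPH1 elongates their filaments. Falling levels of free actin monomer release MRTF coactivators to the transcription factor SRF, which binds CArG boxes and is known to drive many actin, calponin, transgelin and vinculin genes.

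All 31 RNA-seq libraries came from Panc02, a mouse pancreatic adenocarcinoma line. The first table held WT spheroids embedded in Matrigel, grown without macrophage medium (Ctrl), with medium from unstimulated bone marrow-derived macrophages (M0-CM) or with medium from macrophages stimulated with IFNγ and LPS (M1-CM), each with 3 samples. In the second, WT cells and Cxcl5-/- cells (lentiviral Cas9 and guide, puromycin selection) were each grown on plastic (2D) or as spheroids (3D), with 3 samples per group. The rescue table held spheroids of WT cells (2 samples), Cxcl5-/- cells (2 samples), Cxcl5-/- cells with a retrovirus encoding a stabilised mutant Hif1a (Hif1a OE, 3 samples) and Cxcl5-/- cells with a retrovirus encoding Myc (Myc OE, 3 samples). Both overexpressing groups thus also lacked Cxcl5 by their labels, and no empty-vector group was among the samples. The methods speak of biological replicates for the experiments as a whole, but neither they nor the labels say which RNA-seq samples came from separate cultures, or whether lines were clones, so that p-values here measure the spread between these samples. The labels number the cell line name upward from sample to sample in the rescue table, and all were read here as Panc02.

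Libraries held 41542533 to 78498230 counts. Levels are given as CPM (counts relative to the total of the library), scaled by the trimmed mean of M-values (TMM). A difference was called at an adjusted p under 0.05 in edgeR's quasi-likelihood test over all genes of a table, and fold changes are on the log2 scale with their standard error. In the rescue table Cxcl5 was lower in Cxcl5-/- than in WT (log2 fold change -0.78, adjusted p = 0.00107). In 2D culture WT read 45.6, 47.3 and 49.1 CPM and Cxcl5-/- 37.4, 32.7 and 32.8, without overlap but not past the threshold (-0.47, adjusted p = 0.0705). In 3D culture WT read 28.5, 24.5 and 28.0 CPM and the libraries labelled 3D Cxcl5-/- 65.5, 40.9 and 45.4. The latter is higher (0.91, adjusted p = 0.000173), the opposite direction to the rescue table. These counts are of RNA and do not show whether protein was lost. The study checked the knockout by a CXCL5 immunoblot, in spheroids as well, but the labels do not link that blot to these libraries. These 3 libraries are called by their label throughout, and every direction drawn from them rests on that label. Hif1a and Myc were lower in them than in 3D WT (-1.21 and -1.75), as in rescue Cxcl5-/- against WT (-1.18 and -1.17). Myc was 4.54 log2 units higher in Myc OE and Hif1a 0.94 higher in Hif1a OE than in rescue Cxcl5-/-, and Hif1a was also 0.90 higher in Myc OE. Hif1a RNA in Hif1a OE was not above rescue WT (-0.24, adjusted p = 0.0999). Among epithelial markers Epcam and Cdh1 were at or near 0 in every group while Krt8 led its list, Col3a1 led the fibroblast list, Cd14 the macrophage list, and Pdgfrb the smooth muscle and pericyte list except in rescue WT, where Smtn did.

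Of the 40 genes, 35 had an entry in the promoter table (RefSeq, GRCm38.p6; 250 bases before to 50 after a gene's start), and 7 of these (20%) held a CArG box, CC and GG around 6 bases that are each A or T, against 488 of 27025 genes (1.81%) in the whole table. The motif reads the same on both strands as a class and was counted once per site. The boxes are shown because SRF was itself measured and because these 7 genes can be followed below; 30 bases around each are given 5′ to 3′ on the strand of the gene, with the box in capitals.
Actg1 (chr11:120348566-120348595, minus strand): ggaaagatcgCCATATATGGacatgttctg
Cnn2 (chr10:79988534-79988563, plus strand): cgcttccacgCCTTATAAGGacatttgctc
Lima1 (chr15:99820177-99820206, minus strand): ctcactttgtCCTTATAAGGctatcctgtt
Myl6 (chr10:128493040-128493069, minus strand): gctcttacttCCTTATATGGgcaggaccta
Myl9 (chr2:156775293-156775322, plus strand): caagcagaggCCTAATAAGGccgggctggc
Srf (chr17:46556225-46556254, minus strand): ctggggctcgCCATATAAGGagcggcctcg
Srf (chr17:46556205-46556234, minus strand): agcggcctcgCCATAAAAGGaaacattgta
Vcl (chr14:20929161-20929190, plus strand): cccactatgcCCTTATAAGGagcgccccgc
The middles of the boxes lay between 222 bases (Vcl) and 42 bases (Lima1) before the start, and Srf itself held 2. The Lima1 and Myl6 boxes lay at starts inside the listed spans of these genes (chr15:99778470-99875456 and chr10:128490860-128494145). Actb, Tagln, Pxn, Rock1 and Diaph1 had no entry. A match is a description of these letters, not a measured binding site.

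The 7 genes with a box did not move together. In the libraries labelled 3D Cxcl5-/- against 3D WT, Lima1 rose (0.44 ± 0.08, adjusted p = 0.000583) and Actg1 fell (-0.75 ± 0.08, adjusted p = 4.66e-06), while Myl9, at about 1 CPM or less, also passed the threshold upward (1.79 ± 0.66, adjusted p = 0.0399). Myl9 no longer passed the threshold without 3D WT replicate 3, or 3D Cxcl5-/- replicate 1 or 3 (adjusted p = 0.0658 to 0.12). Without 3D WT replicate 1 the Myl9 value was 2.88. With Myc OE against rescue Cxcl5-/-, Myl9, Myl6, Srf and Cnn2 rose and Lima1 and Vcl fell, as given by role below.

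The 40 genes split in direction in most comparisons, as the heat map of their fold changes shows. From 2D to 3D in WT cells, 5 of the 40 rose, where 22.2% of all 21367 genes tested did, and 14 fell, where 22% of all genes did. In Cxcl5-/- cells, 4 rose from 2D to 3D (all genes 28.7%) and 26 fell (all genes 28.2%). In 2D the genotypes differed in 2 genes upward (all genes 3.86%) and 1 downward (all genes 3.17%). In 3D, 7 were higher in the libraries labelled Cxcl5-/- (all genes 19.7%) and 23 were lower (all genes 25.3%).

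**Figure D1:**
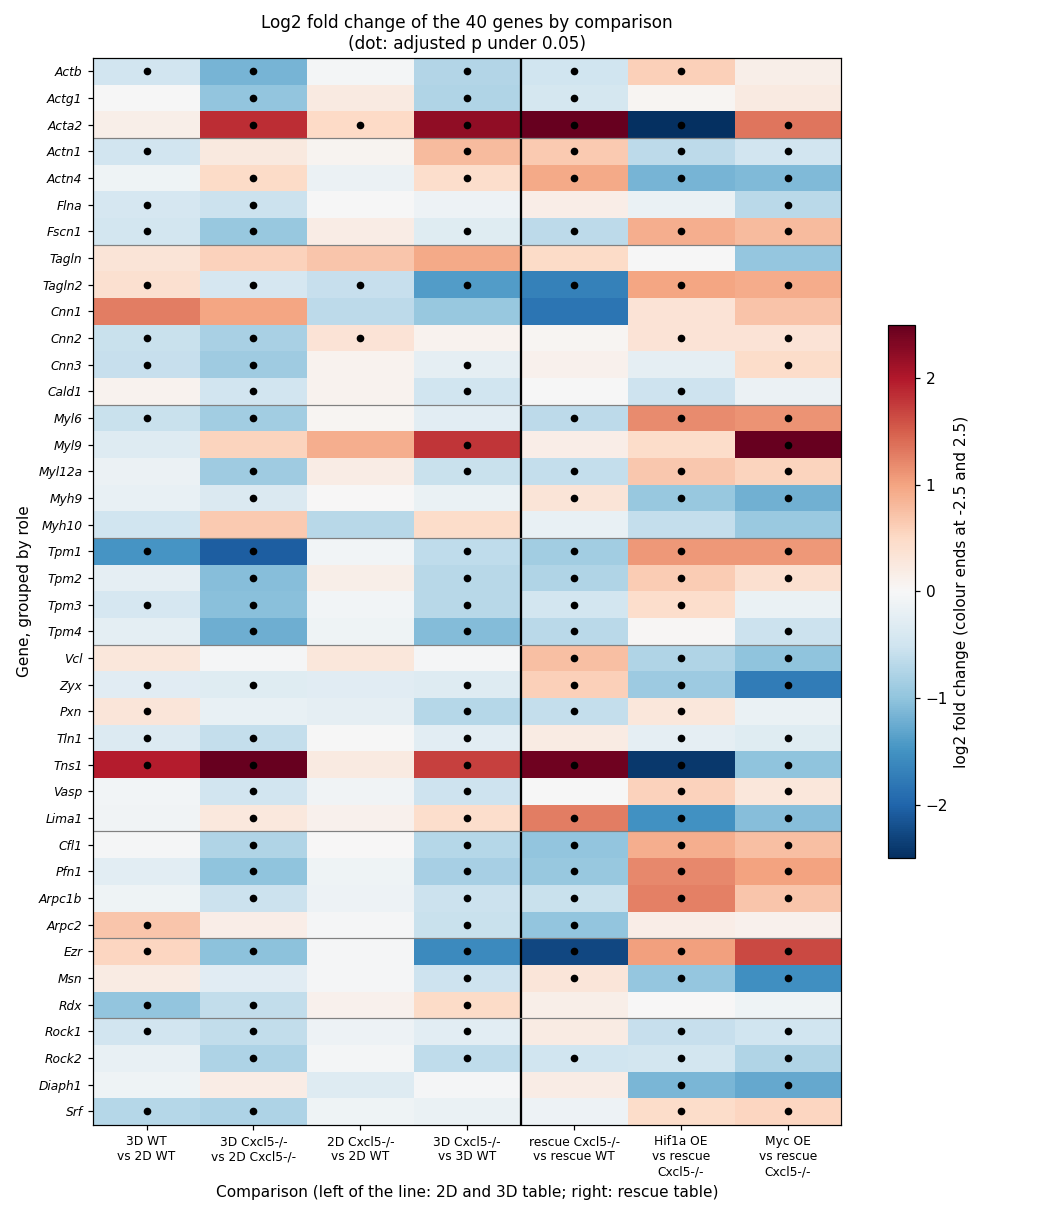
Heat map of log2 fold changes of the 40 genes (rows, by role, lines between roles) in 7 comparisons (columns); red is higher and blue lower in the first group named, and a dot marks an adjusted p under 0.05. Acta2 carries the deepest red in both 3D genotype columns. Tns1 is red in both as well, though in the fourth column Myl9, at low counts, is slightly deeper than Tns1. Tagln2 and Ezr are blue in both. In the fourth column Flna, Fscn1, Cnn3, Vcl, Zyx, Tln1 and Rock1 turn positive when libraries are scaled by their totals.

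In the rescue table, 9 genes were higher in Cxcl5-/- than in WT (all 28730 genes 17.6%) and 17 were lower (all genes 24.3%). Hif1a OE against rescue Cxcl5-/- gave 16 higher (all genes 20.5%) and 14 lower (all genes 15%), and Myc OE gave 16 higher (all genes 21.6%) and 14 lower (all genes 18%). Against rescue WT, 5 genes were higher with Hif1a OE (all genes 13.9%) and 14 lower (all genes 10.3%), while 8 were higher with Myc OE (all genes 17.1%) and 14 lower (all genes 14.7%). Myc OE against Hif1a OE left 7 higher (all genes 9.54%) and 11 lower (all genes 9.73%). These comparisons share control libraries and are given side by side for that reason.

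The median log2 fold change of the 40 was -0.18 from 2D to 3D in WT, beside 0.00 over all genes, and -0.54 beside 0.11 in Cxcl5-/-. For the 3D genotype comparison it was -0.31 beside -0.04 in the 2D and 3D table and -0.06 beside -0.30 in the rescue table. Hif1a OE and Myc OE against rescue Cxcl5-/- gave 0.04 beside 0.16 and -0.00 beside 0.11.

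The counts depended on how libraries were scaled. With library totals in place of TMM factors, the median over all genes in 3D Cxcl5-/- against 3D WT moved from -0.04 to 0.35 and the 40 genes split 10 higher and 10 lower. Of the 30 calls there 13 ended (Fscn1, Cnn3, Cald1, Myl12a, Tpm1, Zyx, Tln1, Vasp, Arpc1b, Arpc2, Msn, Rock1 and Rock2), and Flna, Cnn2 and Vcl were called upward. In 3D WT against 2D WT the median moved from 0.00 to -0.21 with 3 higher and 24 lower. In the rescue table the same change gave 12 higher and 16 lower for Hif1a OE and 11 higher and 20 lower for Myc OE against rescue Cxcl5-/-, with the median over all genes going from 0.16 to 0.00 and from 0.11 to -0.11. Against rescue WT it gave 2 higher and 17 lower for Hif1a OE and 4 higher and 23 lower for Myc OE, and 6 higher and 15 lower between the overexpressing groups. DESeq2 size factors gave 3 higher and 16 lower for Hif1a OE and 6 higher and 21 lower for Myc OE against rescue WT. The predicted gene Gm10800 took 14.5% of the counts of 3D WT replicate 3 and 8.34% of those of replicate 2, and its part in the scaling was not tested.

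Transcript length moved with the pattern, and its part in the results was not tested. Across the 40 genes, Spearman's rank correlation between log2 fold change and the length of the principal transcript was 0.49 for rescue Cxcl5-/- against WT, -0.63 for Hif1a OE and -0.67 for Myc OE against rescue Cxcl5-/-, beside 0.32, -0.42 and -0.44 across all expressed genes; genes share their libraries and are no replicates. The genes that rose with Myc OE had a median length of 2073.5 bases and those that fell 5466.5 bases, as the plot of fold change on length shows. In the 2D and 3D table the same correlation was 0.34 for the 3D genotype comparison, beside 0.28 over all genes. Replicates of one group also differed along length: within Hif1a OE, the rank correlation between a library's deviation from its group and length ran from -0.49 (replicate 2) to 0.38 (replicate 3). With an offset for length and GC content in the fit, 7 genes were higher and 21 lower in rescue Cxcl5-/- than in WT, 18 higher and 15 lower with Hif1a OE, and 14 higher and 15 lower with Myc OE.

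**Figure D2:**
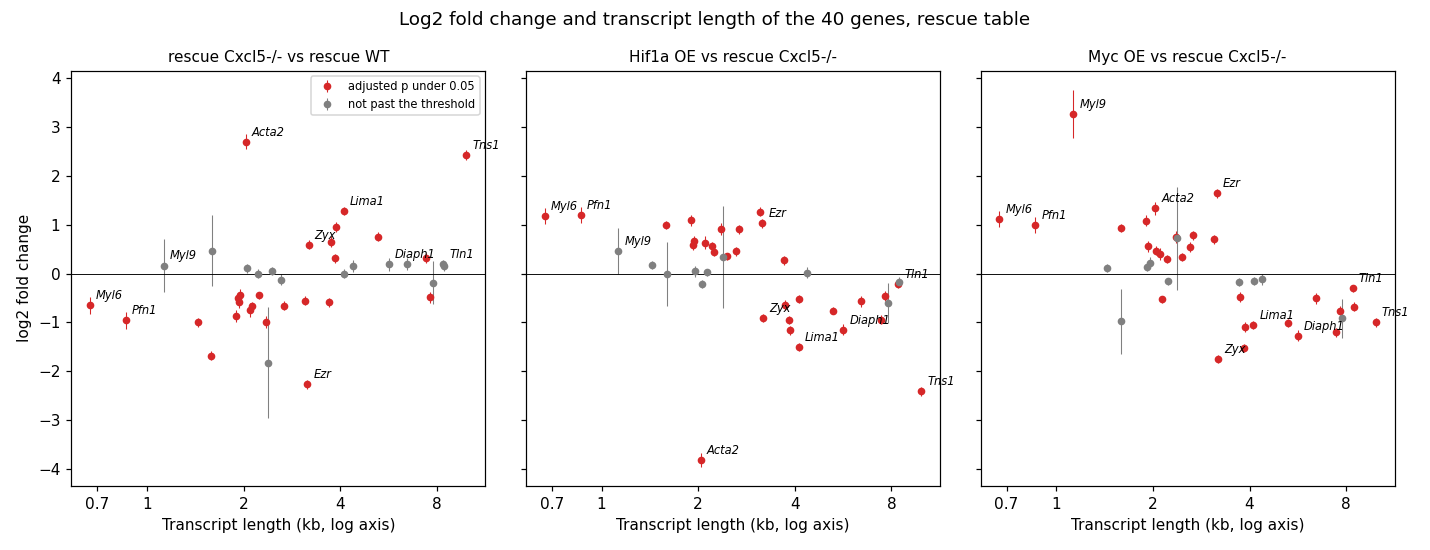
Log2 fold change with its standard error (vertical axis) against the length of the principal transcript in kb (horizontal, log axis) for each of the 40 genes in 3 comparisons of the rescue table; red points have an adjusted p under 0.05. Short transcripts such as Myl6 and Pfn1 lie below 0 on the left and above 0 in the other panels, long ones such as Tns1 do the reverse, and Acta2 and Ezr lie away from the trend.

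Actb and Actg1 encode the cytoplasmic β and γ actins and Acta2 the smooth muscle α actin, a marker of contractile cells. Actb read 5614, 4879.8 and 6066 CPM in 2D WT and 5466, 5501 and 5029.6 in 2D Cxcl5-/-. As spheroids, WT cells read 4470.4, 3347 and 4078 and the libraries labelled Cxcl5-/- 2526, 2203 and 2407. Every 3D library lay below every 2D library. The last group lay below 3D WT without overlap (-0.74 ± 0.11, adjusted p = 0.000106). In the rescue libraries, WT read 3367 and 3259.7 CPM and Cxcl5-/- 2323 and 2374. The levels were 3407, 3845 and 3339 with Hif1a OE and 2668, 2566 and 2545 with Myc OE. Cxcl5-/- was again the lowest group (-0.50 ± 0.11, adjusted p = 0.00357). Hif1a OE was above it (0.59 ± 0.10, adjusted p = 0.000672), and Myc OE, at 0.14 ± 0.10, adjusted p = 0.265, did not pass the threshold. The study's qRT-PCR was normalised to β-actin, the product of this gene. A lower reference level raises the values normalised to it. The study also showed HIF-1α and MYC protein by western blot, and its MYC blot had β-actin as the loading control.

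Actg1 followed Actb in 3D but not from 2D to 3D. Its levels were 855, 831 and 935 CPM in 2D WT, 1041, 1076 and 939 in 2D Cxcl5-/-, 896, 829 and 869.7 in 3D WT and 517, 502 and 519.8 in the libraries labelled 3D Cxcl5-/-. The 3D WT libraries overlapped 2D WT (-0.01 ± 0.08, adjusted p = 0.899), and the last group was lower than all others (-0.75 ± 0.08, adjusted p = 4.66e-06 against 3D WT). Rescue WT stood at 823 and 763 CPM and rescue Cxcl5-/- at 565 and 608. With Hif1a OE the libraries read 596, 670.0 and 556, and with Myc OE 759, 676 and 610.2. WT was the highest group and Cxcl5-/- was below it (-0.44 ± 0.12, adjusted p = 0.0169), and neither overexpressing group differed from Cxcl5-/- past the threshold (0.05 and 0.22). The rescue genotype call of Actg1 ended without rescue WT replicate 1, or rescue Cxcl5-/- replicate 1 or 2 (adjusted p = 0.0597 to 0.125).

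Acta2 moved the other way, and furthest of the 40 in both 3D genotype comparisons. It read 7.74, 8.52 and 8.72 CPM in 2D WT and 10.9, 12.5 and 12.1 in 2D Cxcl5-/-. The 3D levels were 10.2, 7.57 and 9.85 CPM for WT and 45.3, 37.4 and 45.6 for the libraries labelled Cxcl5-/-. The last group stood above all others with no overlap (2.21 ± 0.13, adjusted p = 2.51e-08). In 2D the genotype difference was small (0.51 ± 0.13, adjusted p = 0.0253). Acta2 no longer passed the threshold without 2D WT replicate 1 or 2, or 2D Cxcl5-/- replicate 2 or 3 (adjusted p = 0.0558 to 0.099). Among rescue spheroids, WT had 6.62 and 5.33 CPM and Cxcl5-/- 35.7 and 41.7. Those with Hif1a OE had 2.27, 3.11 and 2.8 and those with Myc OE 104, 91.6 and 96.6. The 4 groups were separate, with Hif1a OE below WT and Myc OE above every other group. Against rescue Cxcl5-/- it fell with Hif1a OE (-3.82 ± 0.14, adjusted p = 3.83e-08) and rose with Myc OE (1.33 ± 0.13, adjusted p = 1.22e-05), and the overexpressing groups differed by 5.15 ± 0.14, adjusted p = 6.65e-09. The smooth muscle and pericyte list of 10 markers, which does not hold Acta2, summed to 163 to 184 CPM in 3D WT and 215 to 249 in the libraries labelled 3D Cxcl5-/-, and to 136 to 138 CPM in rescue WT, 246 to 252 in Cxcl5-/-, 159.6 to 189 with Hif1a OE and 213 to 222 with Myc OE. Pdgfrb made up most of the sum except in rescue WT, at 83.4 to 94.3 CPM in 3D WT and 192 to 217 in the libraries labelled 3D Cxcl5-/-, while Smtn had the opposite order, at 70.7 to 85.1 in 3D WT and 19.0 to 26.1 under the Cxcl5-/- label, and at 76.0 to 76.3 in rescue WT and 51.1 to 51.6 in rescue Cxcl5-/-. In Ctrl, the WT spheroids without macrophage medium, Pdgfrb read 171.1 to 233 CPM. Myh11, Des and Rgs5 stayed near 0. The part of these markers in the Acta2 result was not tested.

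**Figure D3:**
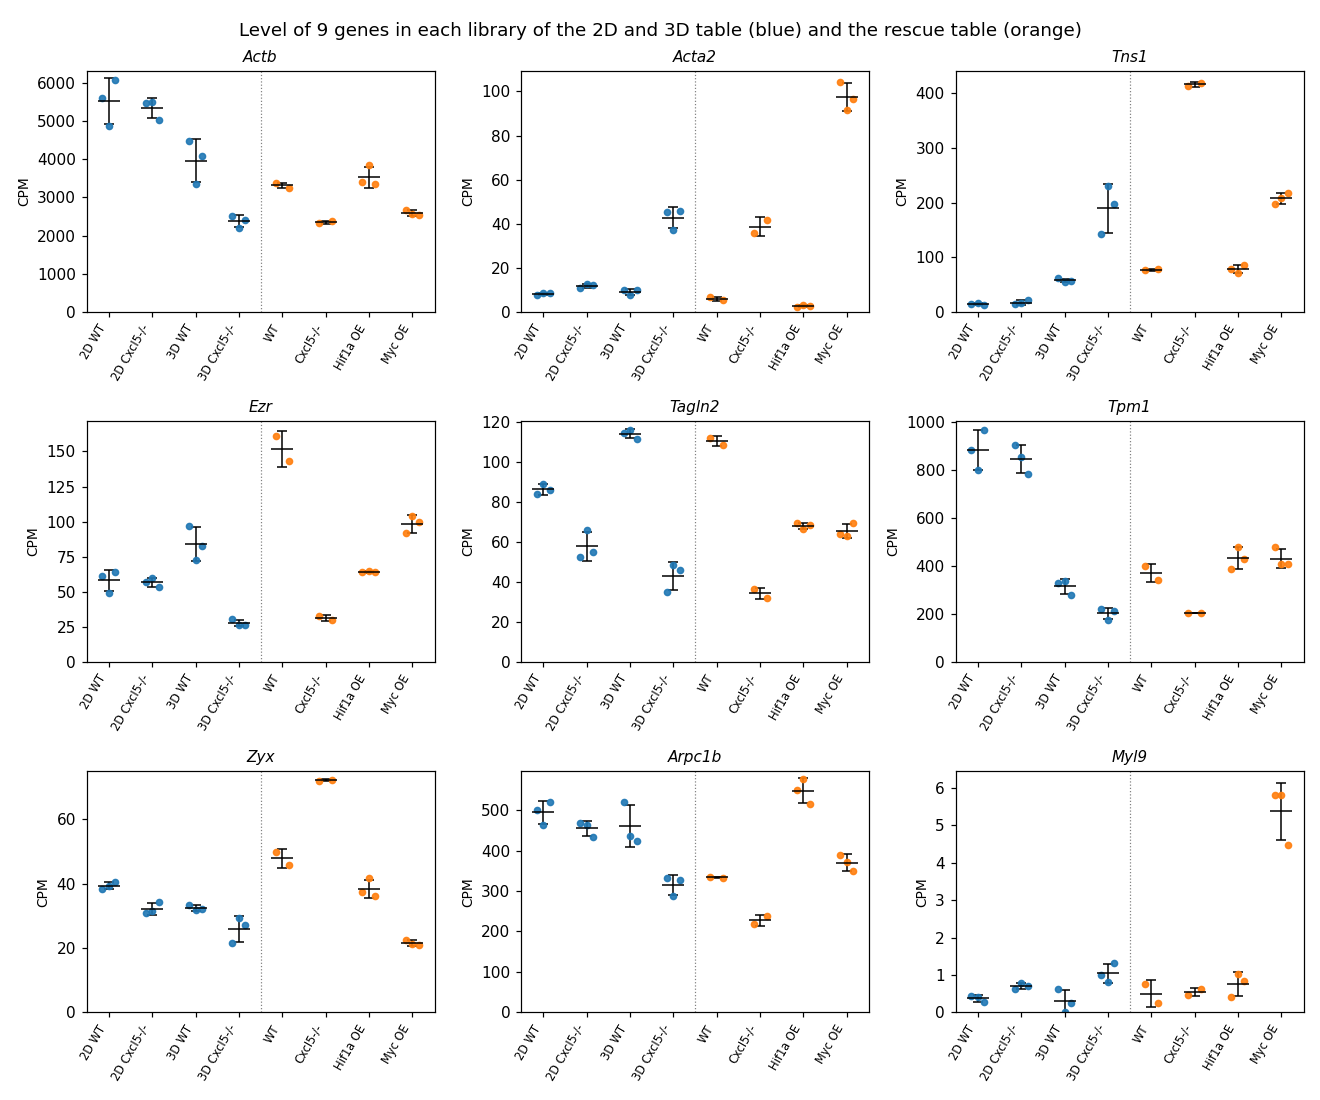
CPM (vertical axis, from 0) of 9 genes in each library, by group (horizontal axis; blue points, 2D and 3D table; orange points, rescue table, all spheroids); the long dash is the mean and the whisker 1 SD, with n = 3 except n = 2 for rescue WT and Cxcl5-/-. Acta2 and Tns1 are high and Ezr and Tagln2 low in the Cxcl5-/- spheroids of both tables, and Acta2 and Myl9 reach their highest levels with Myc OE.

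The α-actinins Actn1 and Actn4, which crosslink filaments in stress fibres, were higher in Cxcl5-/- spheroids in both tables, and fascin (Fscn1), which bundles the filaments of filopodia, was lower. Actn4 read 188, 163 and 171 CPM in 3D WT and 171, 266 and 270.1 in the libraries labelled 3D Cxcl5-/-, where replicate 1 lay within the WT range (0.44 ± 0.17, adjusted p = 0.0468). Actn4 no longer passed the threshold without 3D WT replicate 1, 2 or 3, or 3D Cxcl5-/- replicate 2 or 3 (adjusted p = 0.074 to 0.211). The rescue WT libraries read 156 and 157 CPM and the Cxcl5-/- libraries 306 and 301. Hif1a OE gave 133, 126 and 147 and Myc OE 127, 156 and 144, so that Cxcl5-/- stood alone (0.96 ± 0.11, adjusted p = 4.34e-05 against WT). Both overexpressing groups fell from that level, with log2 fold changes of -1.16 and -1.09.

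Actn1 differed by 0.79 ± 0.12, adjusted p = 0.000126 in the 2D and 3D table and by 0.66 ± 0.11, adjusted p = 0.000901 in the rescue table, and was lower with Hif1a OE (-0.65) and Myc OE (-0.49). Fscn1 read 158, 155 and 159.9 CPM in 2D WT and 163, 200.1 and 174 in 2D Cxcl5-/-. Spheroids gave 127, 104 and 114 in WT and 77.2, 104 and 98.3 under the Cxcl5-/- label. All 3D libraries were below all 2D libraries, and the genotype difference within 3D was -0.31 ± 0.12, adjusted p = 0.0458, which turned to 0.10 with library totals. Fscn1 no longer passed the threshold without 3D WT replicate 1 or 3, or 3D Cxcl5-/- replicate 1 or 3 (adjusted p = 0.0517 to 0.131). In the rescue libraries, WT read 107 and 93.3 CPM and Cxcl5-/- 61.3 and 65.9. The levels were 116, 123 and 119 with Hif1a OE and 119, 104 and 106 with Myc OE. Cxcl5-/- was the lowest group there (-0.65 ± 0.10, adjusted p = 0.000332), and Hif1a OE (0.91 ± 0.09, adjusted p = 1.88e-05) and Myc OE (0.79 ± 0.09, adjusted p = 3.8e-05) were both above it. Flna, the large crosslinker filamin A, did not pass the threshold between genotypes in 3D (-0.12 and 0.16) and fell with Myc OE (-0.68 ± 0.09, adjusted p = 0.000107). With the length and GC offset Flna passed it downward in the rescue genotype comparison (-0.37) and upward with Hif1a OE (0.23).

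In the calponin and transgelin family, the smooth muscle forms Tagln and Cnn1 stayed under 1.2 CPM in every library and were not called in any comparison. Cnn1 was called from 2D to 3D in WT with only those groups fitted and in Cxcl5-/- without 2D Cxcl5-/- replicate 1, and Tagln in 3D Cxcl5-/- against 3D WT without 3D WT replicate 1. The broadly expressed forms had higher levels. Tagln2, the transgelin of non-muscle cells, read 83.7, 88.9 and 86.1 CPM in 2D WT and 52.4, 66.2 and 55.0 in 2D Cxcl5-/-. Levels in 3D were 114, 116 and 111 for WT and 35.0, 48.5 and 45.8 for the libraries labelled Cxcl5-/-. The groups did not overlap: 3D WT was highest, and the last group was lower (-1.40 ± 0.12, adjusted p = 5.56e-07), as 2D Cxcl5-/- was than 2D WT (-0.58 ± 0.11, adjusted p = 0.00622). The 2D genotype call of Tagln2 ended without 2D Cxcl5-/- replicate 1 (adjusted p = 0.054). Rescue WT stood at 112 and 108 CPM and rescue Cxcl5-/- at 36.3 and 32.3. With Hif1a OE the libraries read 69.4, 66.3 and 68.3, and with Myc OE 64.1, 63.1 and 69.6. Both overexpressing groups lay between Cxcl5-/- and WT, above the first (0.99 and 0.94) and below the second (-0.70 ± 0.08, adjusted p = 0.000163 and -0.75 ± 0.08, adjusted p = 4.68e-05).

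Cnn3, the acidic calponin, read 78.1, 83.5 and 86.1 CPM in 2D WT and 92.5, 87.9 and 83.5 in 2D Cxcl5-/-. In 3D the levels were 58.5, 50.4 and 58.3 in WT and 47.4, 44.8 and 50.8 in the libraries labelled Cxcl5-/-. The fall was from 2D to 3D (-0.57 ± 0.08, adjusted p = 7.53e-05 in WT), and in 3D the genotypes overlapped (-0.23 ± 0.08, adjusted p = 0.0396, or 0.17 with library totals). Cnn3 no longer passed the threshold without 3D WT replicate 1 or 3, or 3D Cxcl5-/- replicate 2 (adjusted p = 0.088 to 0.274). Among rescue spheroids, WT had 50.9 and 46.7 CPM and Cxcl5-/- 51.5 and 53.7. Those with Hif1a OE had 46.7, 47.5 and 41.6 and those with Myc OE 74.5, 74.2 and 69.6, and Myc OE was the only one of these groups above Cxcl5-/- past the threshold (0.47 ± 0.09, adjusted p = 0.00107, or 0.13, adjusted p = 0.225 with library totals). Cnn2 was higher in 2D Cxcl5-/- than in 2D WT (0.34 ± 0.10, adjusted p = 0.0462) and rose with Hif1a OE (0.35 ± 0.08, adjusted p = 0.00494) and Myc OE (0.33 ± 0.08, adjusted p = 0.00565, or -0.00 with library totals). The 2D genotype call of Cnn2 ended without 2D WT replicate 1 or 2, or 2D Cxcl5-/- replicate 1, 2 or 3 (adjusted p = 0.0914 to 0.151). Without rescue Cxcl5-/- replicate 2, Cnn2 did not pass with Hif1a OE (adjusted p = 0.0609) or Myc OE (adjusted p = 0.0662). Caldesmon (Cald1), which restrains actomyosin contraction, was lower in the libraries labelled 3D Cxcl5-/- (-0.50 ± 0.10, adjusted p = 0.00135, or -0.10, adjusted p = 0.565 with library totals) but not in rescue Cxcl5-/- (-0.00, adjusted p = 0.997), and fell with Hif1a OE (-0.52 ± 0.08, adjusted p = 0.000438).

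The non-muscle myosin II heavy chain Myh9, the motor that slides filaments, read 894, 750.2 and 931 CPM in 2D WT and 781, 859.7 and 949 in 2D Cxcl5-/-. As spheroids, WT cells read 864, 689.9 and 707 and the libraries labelled Cxcl5-/- 603, 722 and 683, and the genotypes overlapped in 3D (-0.17 ± 0.12, adjusted p = 0.255). The rescue WT libraries read 765 and 761 CPM and the Cxcl5-/- libraries 1002 and 904. Hif1a OE gave 499.5, 445 and 539 and Myc OE 411, 411 and 420.2. Both overexpressing groups lay below WT and Cxcl5-/- alike, at -0.95 ± 0.09, adjusted p = 1.69e-05 and -1.20 ± 0.09, adjusted p = 2.19e-06 against Cxcl5-/-. The higher level in Cxcl5-/- than in WT (0.32 ± 0.10, adjusted p = 0.0308) turned to -0.24 with the length and GC offset. The rescue genotype call of Myh9 ended without rescue WT replicate 1 or 2, or rescue Cxcl5-/- replicate 1 or 2 (adjusted p = 0.0584 to 0.206).

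Among the light chains, Myl6 and Myl12a were lower in rescue Cxcl5-/- than in WT (-0.65 ± 0.17, adjusted p = 0.0114, and -0.59 ± 0.11, adjusted p = 0.00183) and rose with Hif1a OE (1.18 and 0.67) and Myc OE (1.11 and 0.56). Under the 3D Cxcl5-/- label Myl12a was also lower, but not past the threshold with library totals. Myl6 was not called there, with overlap (346, 402 and 296 CPM in 3D WT, 356, 227 and 286 under the Cxcl5-/- label). The Myl6 transcript is the shortest of the 40, and its Myc OE value was -0.04 with the length and GC offset. The lower Myl6 level in rescue Cxcl5-/- than in WT no longer passed the threshold without rescue Cxcl5-/- replicate 1 (adjusted p = 0.0993). Myl9, the regulatory chain typical of smooth muscle, read 0.443, 0.403 and 0.278 CPM in 2D WT and 0.637, 0.772 and 0.709 in 2D Cxcl5-/-. The 3D levels were 0.62, 0 and 0.258 CPM for WT and 0.994, 0.815 and 1.31 for the libraries labelled Cxcl5-/-. In the rescue libraries, WT read 0.75 and 0.239 CPM and Cxcl5-/- 0.477 and 0.629. The levels were 0.412, 1.03 and 0.831 with Hif1a OE and 5.82, 5.81 and 4.48 with Myc OE. The Myc OE libraries stood apart from all others (3.27 ± 0.50, adjusted p = 0.000272 against Cxcl5-/- and 2.81 ± 0.41, adjusted p = 0.000535 against Hif1a OE). Myh10, the other heavy chain, stayed under 2.2 CPM in the 2D and 3D and rescue tables and was not called in any comparison. Under other settings it was called in some, for example in Myc OE against rescue WT by DESeq2.

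All 4 tropomyosin genes, whose products coat filaments and govern which proteins reach them, were lower in Cxcl5-/- than in WT spheroids in both tables, and kept that direction with library totals, where Tpm1 in the 2D and 3D table (-0.26, adjusted p = 0.0642) no longer passed. Tpm1 read 882, 800.2 and 964 CPM in 2D WT and 902, 853 and 784 in 2D Cxcl5-/-. Spheroids gave 329, 337 and 280.3 in WT and 221, 176 and 213 under the Cxcl5-/- label. Its fall from 2D to 3D was the largest of the 40 in WT (-1.48 ± 0.11, adjusted p = 1.7e-07), and a further step separated the genotypes in 3D (-0.63 ± 0.11, adjusted p = 0.000368). Rescue WT stood at 398 and 344 CPM and rescue Cxcl5-/- at 203 and 203. With Hif1a OE the libraries read 387, 478 and 431, and with Myc OE 477, 407 and 409. Cxcl5-/- was below all other libraries, and both overexpressing groups reached or passed the WT levels (1.09 ± 0.12, adjusted p = 2.76e-05 and 1.09 ± 0.12, adjusted p = 2.08e-05 against Cxcl5-/-).

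Tpm4 read 915, 893 and 1001 CPM in 2D WT and 929.6, 837 and 838 in 2D Cxcl5-/-. Levels in 3D were 787, 819.8 and 759 for WT and 419.5, 318 and 382 for the libraries labelled Cxcl5-/- (-1.08 ± 0.10, adjusted p = 1.57e-06). Among rescue spheroids, WT had 687 and 677 CPM and Cxcl5-/- 433 and 427. Those with Hif1a OE had 453, 447 and 415 and those with Myc OE 299.5, 294 and 301. Cxcl5-/- was below WT (-0.67 ± 0.08, adjusted p = 9e-05), Hif1a OE overlapped Cxcl5-/- (0.03 ± 0.08, adjusted p = 0.833), and Myc OE was lower still (-0.53 ± 0.08, adjusted p = 0.000168). Tpm2 and Tpm3 rose with Hif1a OE (0.63 and 0.44). With Myc OE, Tpm2 was at 0.40 ± 0.13, adjusted p = 0.0309 and Tpm3 at -0.16 ± 0.07, adjusted p = 0.106. With Myc OE against Cxcl5-/-, Tpm2 no longer passed the threshold without rescue Cxcl5-/- replicate 1 or 2, or Myc OE Cxcl5-/- replicate 1 or 2 (adjusted p = 0.0749 to 0.145). Per kb of transcript, Tpm1 made up 44.3% of the 4 tropomyosins in 2D WT, 25.6% in 3D WT, 30.5% in the libraries labelled 3D Cxcl5-/-, 31% in rescue WT, 27.4% in rescue Cxcl5-/-, 41.7% with Hif1a OE and 50.9% with Myc OE, and Tpm4 41.9%, 57.1%, 49.9%, 50.8%, 51.8%, 37.7% and 31.4% in the same order. Tropomyosin genes make several isoforms each, which a count per gene does not tell apart.

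Among the focal adhesion proteins, tensin 1 (Tns1), which links integrin tails to actin, moved most in both 3D genotype comparisons and with Hif1a OE, and Zyx did with Myc OE. It read 14.6, 17.2 and 12.6 CPM in 2D WT and 14.3, 16.1 and 21.8 in 2D Cxcl5-/-. In 3D the levels were 61.6, 55.2 and 56.9 in WT and 142, 231 and 198 in the libraries labelled Cxcl5-/-. Both steps were without overlap, from 2D to 3D in WT (1.97 ± 0.18, adjusted p = 1.4e-06) and between the genotypes in 3D (1.72 ± 0.18, adjusted p = 4.95e-06), while in 2D the genotypes overlapped (0.23 ± 0.18, adjusted p = 0.586). The rescue WT libraries read 76.0 and 78.3 CPM and the Cxcl5-/- libraries 413 and 419. Hif1a OE gave 78.3, 70.8 and 86.3 and Myc OE 198, 208 and 218. Hif1a OE overlapped WT (0.02 ± 0.09, adjusted p = 0.872), and Myc OE lay between WT and Cxcl5-/- (-1.0 ± 0.09, adjusted p = 5.71e-06 against Cxcl5-/-).

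Lima1 (EPLIN), which stabilises filaments, was, like Actn4, higher in Cxcl5-/- spheroids (0.44 ± 0.08, adjusted p = 0.000583, and 1.28 ± 0.09, adjusted p = 1.2e-06 in the rescue table) and lower with Hif1a OE (-1.51 ± 0.08, adjusted p = 2.29e-07) and Myc OE (-1.06 ± 0.08, adjusted p = 1.59e-06). Zyxin (Zyx), a protein of stretched stress fibres, read 38.3, 39.1 and 40.4 CPM in 2D WT and 30.8, 31.4 and 34.2 in 2D Cxcl5-/-. As spheroids, WT cells read 33.4, 31.9 and 32.0 and the libraries labelled Cxcl5-/- 21.4, 29.3 and 27.1 (-0.32 ± 0.10, adjusted p = 0.0217, or 0.08 with library totals). In the rescue libraries, WT read 49.9 and 45.8 CPM and Cxcl5-/- 71.9 and 72.2. The levels were 37.3, 41.6 and 36.1 with Hif1a OE and 22.4, 21.1 and 21.0 with Myc OE. The groups were separate there, in the opposite order of genotypes to the 2D and 3D table (0.59 ± 0.09, adjusted p = 0.000512), with the lowest levels in Myc OE (-1.74 ± 0.09, adjusted p = 1.17e-07; Hif1a OE -0.91 ± 0.09, adjusted p = 1.08e-05).

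Vinculin (Vcl), which couples talin to actin under load, did not differ past the threshold between genotypes in the 2D and 3D table (-0.02, or 0.39, adjusted p = 0.0497 with library totals) but was higher in rescue Cxcl5-/- (0.76 ± 0.09, adjusted p = 5.63e-05) and lower with Hif1a OE (-0.76 ± 0.08, adjusted p = 2.38e-05) and Myc OE (-1.02 ± 0.08, adjusted p = 2.21e-06). The adaptor paxillin (Pxn) was lower in Cxcl5-/- spheroids in both tables (-0.72 ± 0.10, adjusted p = 6.19e-05, and -0.59 ± 0.10, adjusted p = 0.000689) and was at 0.27 ± 0.09, adjusted p = 0.0352 with Hif1a OE and -0.17 ± 0.09, adjusted p = 0.153 with Myc OE. With Hif1a OE against Cxcl5-/-, Pxn no longer passed the threshold without rescue Cxcl5-/- replicate 1, or Hif1a OE Cxcl5-/- replicate 1 (adjusted p = 0.0854 to 0.347). Without rescue Cxcl5-/- replicate 2 the Pxn value with Hif1a OE was 0.42. Talin 1 (Tln1), the integrin activator, was at -0.27 ± 0.10, adjusted p = 0.0374 in the 2D and 3D table, 0.20 ± 0.08, adjusted p = 0.077 in the rescue table, -0.22 ± 0.08, adjusted p = 0.0402 with Hif1a OE and -0.30 ± 0.08, adjusted p = 0.0078 with Myc OE. Its sign depended on the processing: it was 0.13 with library totals in the first, and -0.41, 0.19 and 0.18 with the length and GC offset in the others. Its call also ended without 1 library in the first (3D WT replicate 1 or 3D Cxcl5-/- replicate 1 or 2), in the Hif1a OE comparison (any library of both groups) and in the Myc OE comparison (either rescue Cxcl5-/- library), with adjusted p up to 0.116, 0.251 and 0.092. Vasp, which speeds filament elongation, was lower in the libraries labelled 3D Cxcl5-/- (-0.51 ± 0.14, adjusted p = 0.00922, or -0.12, adjusted p = 0.43 with library totals) and rose with Hif1a OE (0.57 ± 0.08, adjusted p = 0.000263). The 3D genotype call of Vasp ended without 3D Cxcl5-/- replicate 2 (adjusted p = 0.0657).

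Cofilin (Cfl1) severs filaments, profilin (Pfn1) feeds monomers to growing ends, and Arpc1b and Arpc2 are subunits of the branching ARP2/3 complex; all 4 were lower in Cxcl5-/- than in WT spheroids in both tables. With library totals Arpc1b (-0.16, adjusted p = 0.175) and Arpc2 (-0.18, adjusted p = 0.0704) kept the direction in the 2D and 3D table but did not pass the threshold. Pfn1 read 345, 277 and 349.7 CPM in 2D WT and 303, 324 and 279.6 in 2D Cxcl5-/-. The 3D levels were 299, 238 and 267 CPM for WT and 176, 134 and 144 for the libraries labelled Cxcl5-/-, the lowest group (-0.82 ± 0.13, adjusted p = 0.000134). Rescue WT stood at 271 and 262 CPM and rescue Cxcl5-/- at 129 and 146. With Hif1a OE the libraries read 287, 390.0 and 274, and with Myc OE 317, 276 and 233. Cxcl5-/- was the lowest group again (-0.96 ± 0.18, adjusted p = 0.00133), Hif1a OE was above it (1.21 ± 0.17, adjusted p = 0.000165), and so was Myc OE (1.00 ± 0.16, adjusted p = 0.000483; 0.06 and no longer past the threshold with the length and GC offset).

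Arpc1b read 499, 464 and 520.4 CPM in 2D WT and 467, 463 and 435 in 2D Cxcl5-/-. Spheroids gave 519, 435 and 425 in WT and 331, 287 and 327 under the Cxcl5-/- label (-0.55 ± 0.09, adjusted p = 0.00038). Among rescue spheroids, WT had 335 and 333 CPM and Cxcl5-/- 218 and 237. Those with Hif1a OE had 550.0, 577 and 515 and those with Myc OE 390.1, 372 and 348. Hif1a OE lay above every other group (1.27 ± 0.09, adjusted p = 1.8e-06 against Cxcl5-/-, 0.71 ± 0.09, adjusted p = 0.000282 against WT), and Myc OE was above Cxcl5-/- (0.70 ± 0.09, adjusted p = 6.82e-05). The other ARP2/3 subunit, Arpc2, rose from 2D to 3D in WT (0.69 ± 0.08, adjusted p = 9.48e-06), was lower in rescue Cxcl5-/- (-1.0 ± 0.09, adjusted p = 9.74e-06) and stayed below WT with Hif1a OE (-0.82 ± 0.08, adjusted p = 6.65e-05) and Myc OE (-0.88 ± 0.08, adjusted p = 1.8e-05). Against Cxcl5-/- it was 0.17 and 0.11, neither past the threshold, and -0.27 and -0.42, both past it, with the length and GC offset. Cfl1 was at -0.71 ± 0.09, adjusted p = 3.71e-05 and -0.99 ± 0.13, adjusted p = 0.000128 between genotypes in the 2 tables and rose with Hif1a OE (0.91 ± 0.12, adjusted p = 0.000142) and Myc OE (0.75 ± 0.12, adjusted p = 0.000445).

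Ezrin (Ezr), moesin (Msn) and radixin (Rdx) tie actin to the plasma membrane, ezrin mostly in epithelia, and the 3 did not move as 1 group. Ezr read 61.2, 49.3 and 63.9 CPM in 2D WT and 57.3, 60.1 and 53.7 in 2D Cxcl5-/-. Levels in 3D were 96.6, 72.4 and 82.6 for WT and 30.6, 26.5 and 26.5 for the libraries labelled Cxcl5-/-. It rose from 2D to 3D in WT (0.53 ± 0.12, adjusted p = 0.00217) and fell in Cxcl5-/- (-1.03 ± 0.12, adjusted p = 5.93e-06), and the 3D genotypes did not overlap (-1.59 ± 0.12, adjusted p = 2.32e-07). The rescue WT libraries read 161 and 143 CPM and the Cxcl5-/- libraries 32.9 and 30.1. Hif1a OE gave 63.9, 65.1 and 64.1 and Myc OE 91.8, 104 and 99.5. The 4 groups were separate (-2.27 ± 0.10, adjusted p = 6.88e-08 for Cxcl5-/- against WT), and Hif1a OE (1.03 ± 0.09, adjusted p = 6.53e-06) and Myc OE (1.65 ± 0.09, adjusted p = 2.67e-07) lay between. The 8 epithelial markers, which do not include Ezr, summed to 854 to 1098 CPM in 3D WT and 218 to 238 in the libraries labelled 3D Cxcl5-/-. The rescue sums were 857 to 904 CPM in WT, 288 to 303 in Cxcl5-/-, 707 to 839 with Hif1a OE and 268 to 313 with Myc OE. Krt8 was the highest of them in each group, and Krt18 and Krt19 were lower, like Krt8, in Cxcl5-/- than in WT spheroids of both tables. Other members had another order. Krt7 read 0.42 to 0.885 CPM in 3D WT and 3.07 to 3.24 under the 3D Cxcl5-/- label, and Sox9 12.9 to 14.6 and 13.9 to 26.8. Krt7 read 1.09 to 1.54 CPM in rescue WT and 20.8 to 38.5 with Hif1a OE. The part of these markers in the Ezr result was not tested.

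Msn read 225, 266 and 252 CPM in 2D WT and 228, 267 and 229.9 in 2D Cxcl5-/-. In 3D the levels were 278, 326 and 251 in WT and 149.6, 232 and 216 in the libraries labelled Cxcl5-/- (-0.52 ± 0.15, adjusted p = 0.0117, or -0.11, adjusted p = 0.656 with library totals). In the rescue libraries, WT read 394 and 365 CPM and Cxcl5-/- 483 and 458. The levels were 245, 241 and 240.0 with Hif1a OE and 152, 174 and 165 with Myc OE. The genotype difference had the opposite sign here (0.31 ± 0.09, adjusted p = 0.0195), and both overexpressing groups were below WT and Cxcl5-/- (-0.96 ± 0.08, adjusted p = 5.98e-06, and -1.52 ± 0.08, adjusted p = 2.19e-07, against Cxcl5-/-). The rescue genotype call of Msn ended without rescue WT replicate 1 or 2, or rescue Cxcl5-/- replicate 1 or 2 (adjusted p = 0.0566 to 0.156). It also ended with DESeq2 size factors, with at least 10 counts in every sample and with the length and GC offset (adjusted p = 0.0707, 0.0621 and 0.109). Rdx fell from 2D to 3D in WT (-0.98 ± 0.09, adjusted p = 1.18e-06) and was higher under the 3D Cxcl5-/- label (0.47 ± 0.09, adjusted p = 0.000745), with no difference past the threshold in the rescue table (0.15). Per kb of transcript, Ezr made up 13.5% of the 3 linkers in 2D WT, 20.7% in 3D WT and 8.95% in the libraries labelled 3D Cxcl5-/-, and 26.9% in rescue WT, 5.95% in Cxcl5-/-, 17.1% with Hif1a OE and 29.4% with Myc OE.

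The kinase gene Rock2 read 301, 312 and 302 CPM in 2D WT and 297, 281 and 307 in 2D Cxcl5-/-. As spheroids, WT cells read 235, 304 and 269 and the libraries labelled Cxcl5-/- 159.7, 176 and 183, the lowest group (-0.64 ± 0.10, adjusted p = 0.000107, or -0.25, adjusted p = 0.124 with library totals). Rescue WT stood at 337 and 331 CPM and rescue Cxcl5-/- at 247 and 229. With Hif1a OE the libraries read 167, 163 and 186, and with Myc OE 126, 140.5 and 155. The levels stepped down from WT to Cxcl5-/- (-0.49 ± 0.11, adjusted p = 0.00459) and again to Hif1a OE (-0.47 ± 0.10, adjusted p = 0.00322; 0.00 with the length and GC offset) and Myc OE (-0.76 ± 0.10, adjusted p = 8.83e-05). The difference between WT and Cxcl5-/- no longer passed the threshold without rescue Cxcl5-/- replicate 2 (adjusted p = 0.0565), and that between Cxcl5-/- and Hif1a OE without rescue Cxcl5-/- replicate 1 (adjusted p = 0.0577).

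Diaph1, the formin that elongates unbranched filaments, read 58.0, 56.8 and 57.2 CPM in 3D WT and 42.9, 66.4 and 58.7 in the libraries labelled 3D Cxcl5-/-, with overlap (-0.03 ± 0.14, adjusted p = 0.863), beside 56.0, 70.6 and 57.6 in 2D WT and 43.9, 53.8 and 49.8 in 2D Cxcl5-/-. Among rescue spheroids, WT had 76.0 and 72.1 CPM and Cxcl5-/- 86.4 and 82.5. Those with Hif1a OE had 38.8, 31.6 and 43.7 and those with Myc OE 36.5, 33.4 and 34.9. Both overexpressing groups were below both others, against Cxcl5-/- (-1.15 ± 0.12, adjusted p = 1.77e-05, and -1.27 ± 0.12, adjusted p = 6.14e-06) and against WT (-0.96 and -1.08). Rock1 was lower with Hif1a OE (-0.57 ± 0.11, adjusted p = 0.00201) and Myc OE (-0.51 ± 0.11, adjusted p = 0.00366) and did not differ past the threshold between the rescue genotypes (0.20). With the length and GC offset it no longer passed with either overexpressing group. Under the 3D Cxcl5-/- label Rock1 was lower (-0.27, or 0.12 with library totals). That call ended without 3D WT replicate 2 or 3D Cxcl5-/- replicate 2 (adjusted p = 0.0574 and 0.0511).

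The transcription factor gene Srf read 41.9, 27.2 and 37.3 CPM in 2D WT and 31.5, 34.6 and 32.5 in 2D Cxcl5-/-. The 3D levels were 25.2, 18.6 and 21.2 CPM for WT and 20.9, 17.3 and 19.5 for the libraries labelled Cxcl5-/-. It was lower in 3D than in 2D in both genotypes (-0.71 ± 0.15, adjusted p = 0.00137, and -0.77 ± 0.15, adjusted p = 0.00054), and the genotypes overlapped in 3D (-0.17 ± 0.15, adjusted p = 0.379). The rescue WT libraries read 17.5 and 18.6 CPM and the Cxcl5-/- libraries 16.5 and 16.6. Hif1a OE gave 21.7, 23.5 and 22.8 and Myc OE 26.1, 21.9 and 24.3. Both overexpressing groups were above Cxcl5-/- (0.45 ± 0.10, adjusted p = 0.00398, and 0.54 ± 0.10, adjusted p = 0.00111), and neither was with library totals (adjusted p = 0.122 and 0.151). Against WT, Hif1a OE was at 0.33 ± 0.10, adjusted p = 0.036, and at -0.16 with the length and GC offset. This comparison of Srf with WT no longer passed the threshold without rescue WT replicate 1 or 2, or Hif1a OE Cxcl5-/- replicate 1, 2 or 3 (adjusted p = 0.0507 to 0.242).

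The 3D genotype comparison was made in both tables on separate libraries, and the scatter of the fold changes sets them side by side. Of the 40 genes, 30 had the same sign in both (75.0%), beside 76.5% of the 21058 genes tested in both. Of the 7 genes higher in the 2D and 3D table, 5 were also higher in the rescue table (71.4%, beside 69.4% over all genes): Acta2, Tns1, Actn1, Actn4 and Lima1. Of the 23 lower, 16 were lower again (69.6%, beside 59.9%), among them the 4 tropomyosins, the 4 turnover genes, Actb, Actg1, Ezr and Tagln2. As shares of the rescue table's calls these were 55.6% of 9 and 94.1% of 17, beside 58.4% and 70.1% over all genes. The 2 that changed sign with a call in each table were Zyx and Msn. The summed level of the 8 fibroblast markers was 542 to 603 CPM in 3D WT and 995 to 1107 in the libraries labelled 3D Cxcl5-/-, and 239 to 257 in rescue WT, 1299 to 1328 in Cxcl5-/-, 522 to 620 with Hif1a OE and 437 to 516 with Myc OE. In Ctrl, the WT spheroids without macrophage medium, the sum was 1351 to 1720 CPM. Col3a1 made up most of the sum, and other members had another order. Pdgfra read 20.05 to 23.57 CPM in 3D WT and 194 to 224.7 under the 3D Cxcl5-/- label. In the rescue table it read 10.96 to 12.15 CPM in WT, 108.7 to 112.3 in Cxcl5-/-, 3.882 to 7.065 with Hif1a OE and 141.1 to 162.6 with Myc OE. Dcn read 35.5 to 39.1 CPM in 3D WT and 1.59 to 4.13 under the 3D Cxcl5-/- label, but 3.99 to 5.04 in rescue WT and 59.4 to 63.4 in rescue Cxcl5-/-, and Lum read 4.93 to 8.21, 2.55 to 3.30, 2.21 to 3.02 and 86.7 to 86.9 CPM in the same groups. Fap was at 0 in several groups. The part of these markers in the results was not tested, and in bulk RNA fewer cells of a kind and less RNA per cell cannot be told apart.

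**Figure D4:**
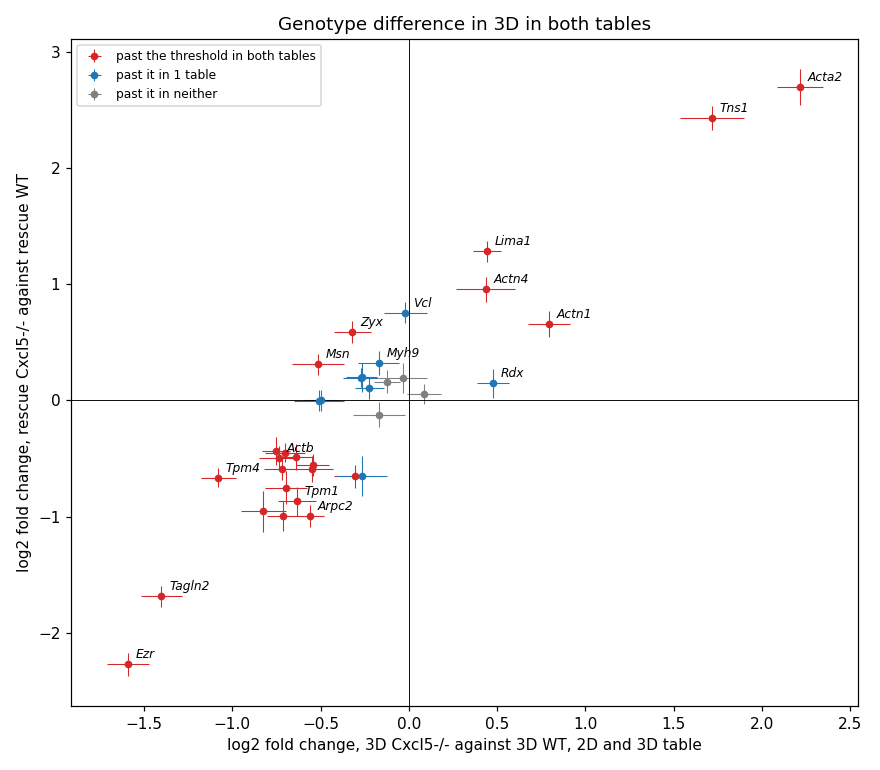
Log2 fold change of Cxcl5-/- against WT spheroids in the 2D and 3D table (horizontal axis) and in the rescue table (vertical axis), with standard errors, for the genes above, leaving out Tagln, Cnn1, Myl9 and Myh10, whose counts are low. Acta2 and Tns1 lie at the upper right and Ezr and Tagln2 at the lower left, Zyx and Msn lie in the upper left quadrant, and with library totals Flna, Fscn1, Cnn3, Vcl, Zyx, Tln1 and Rock1 move to the right of 0.

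For 22 of the 40 genes the genotype difference was not the same in 3D and 2D. The test of the difference between the 3D and the 2D genotype effects called 5 of the 40 upward (all genes 11.1%) and 17 downward (all genes 16.1%), led by Acta2 (1.71 ± 0.18, adjusted p = 1.84e-05) and Tns1 (1.48 ± 0.25, adjusted p = 0.000843) upward and Ezr (-1.56 ± 0.17, adjusted p = 2.27e-05), Actg1 (-0.98 ± 0.11, adjusted p = 3.85e-05) and Tpm4 (-0.97 ± 0.14, adjusted p = 0.000236) downward. With library totals the split was 7 upward and 5 downward, the median over all genes moving from -0.05 to 0.32. The upward count fell to 3 without 2D WT replicate 1 or 2, 2D Cxcl5-/- replicate 2 or 3, any 3D WT library or 3D Cxcl5-/- replicate 3. From 2D to 3D in Cxcl5-/- cells the upward genes were Tns1, Acta2, Actn4 and Lima1 (3.45, 1.85, 0.48 and 0.26), with 7 genes upward without 3D Cxcl5-/- replicate 1 and 2 without replicate 3. Actn4 no longer passed the threshold without 2D Cxcl5-/- replicate 1 or 2, or 3D Cxcl5-/- replicate 2 or 3 (adjusted p = 0.0504 to 0.129). Lima1 no longer passed the threshold without 2D Cxcl5-/- replicate 3, or 3D Cxcl5-/- replicate 3 (adjusted p = 0.0969 to 0.0998).

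Of the 23 genes with lower levels under the 3D Cxcl5-/- label, 13 rose with Hif1a OE against rescue Cxcl5-/- (56.5%, beside 60.3% of all genes lower in that comparison) and 6 fell (26.1%, beside 5.48%), while with Myc OE 11 rose (47.8%, beside 57.4%) and 6 fell (26.1%, beside 9.94%). Of the 7 that were higher, 5 fell with Hif1a OE (71.4%, beside 55.8%) and none rose (0%, beside 5.35%), and with Myc OE 4 fell (57.1%, beside 56.7%) and 2 rose (28.6%, beside 8.37%), Acta2 and Myl9. Against WT, the count higher with Hif1a OE went from 5 to 3 without rescue WT replicate 1 or Hif1a OE replicate 2 and to 2 without rescue WT replicate 2, and the count higher with Myc OE from 8 to 5 without rescue WT replicate 1.

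Between the overexpressing groups, Myc OE was higher than Hif1a OE in Acta2, Myl9, Tns1, Cnn3, Ezr, Lima1 and Cald1 (1.41 for Tns1, 0.68 for Cnn3, 0.61 for Ezr, 0.46 for Lima1 and 0.37 for Cald1; Acta2 and Myl9 are given above). It was lower in Zyx, Tpm3, Msn, Tpm4, Arpc1b, Flna, Actb, Pxn, Rock2, Vasp and Vcl, from -0.83 for Zyx to -0.26 for Vcl. Rock2 no longer passed the threshold without Hif1a OE Cxcl5-/- replicate 1 or 3, or Myc OE Cxcl5-/- replicate 1 or 2 (adjusted p = 0.0756 to 0.14). Vasp no longer passed the threshold without Myc OE Cxcl5-/- replicate 2 or 3 (adjusted p = 0.0652 to 0.091). Vcl no longer passed the threshold without Hif1a OE Cxcl5-/- replicate 1 or 3, or Myc OE Cxcl5-/- replicate 1 or 2 (adjusted p = 0.0751 to 0.0828). Within a library, and so free of the scaling between libraries, the ratio of Actb to Actg1 counts was 5.72 to 6.0 with Hif1a OE, 3.52 to 4.17 with Myc OE, 3.91 to 4.11 in rescue Cxcl5-/- and 4.09 to 4.27 in WT. The Rock1 to Rock2 ratio was 0.317 to 0.352 in rescue WT, 0.531 to 0.547 in Cxcl5-/-, 0.477 to 0.519 with Hif1a OE and 0.595 to 0.669 with Myc OE, and in the 2D and 3D table it was 0.421 to 0.443 in 3D WT and 0.528 to 0.576 in the libraries labelled 3D Cxcl5-/-. Tpm1 to Tpm3 was 3.06 to 3.40 in 2D WT and 1.44 to 1.56 in 3D WT.

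With macrophage medium, none of the 40 genes passed the threshold in M1-CM against Ctrl, where 0.0156% of all 19207 genes did, in M1-CM against M0-CM (all genes 0.0156%) or in M0-CM against Ctrl (all genes 0%), by edgeR or by DESeq2, and at an unadjusted p under 0.05 there were 1 higher and 1 lower, 0, and 1 higher, beside 4.7%, 2.59% and 2.96% of all genes in either direction. Cxcl5 itself was called in the first comparison (log2 fold change 2.76, adjusted p = 0.000474). Replicates spread widely here. M1-CM replicate 2 stood apart from the mean of the other M1-CM libraries. In it 22.4% of all genes were over 0.5 log2 units above that mean and 26.1% as far below. Of the 40 genes, 10 were above and 10 below by this measure, near that background. The deviation ran with transcript length (rank correlation 0.41). None of the 40 genes was called without this library either. Tns1 read 267, 84.7 and 122 CPM in Ctrl, 233, 104 and 147 in M0-CM and 95.3, 403 and 137 in M1-CM. Tpm1 read 292, 467 and 422 CPM in Ctrl, 278, 407 and 366 in M0-CM and 340.0, 166 and 372 in M1-CM. The groups overlapped in both, with the second M1-CM library highest for Tns1 and lowest for Tpm1. Actb read 3344, 4086 and 3634 CPM in Ctrl, 3449, 3829.6 and 3901 in M0-CM and 3622, 3453 and 3945 in M1-CM, also with overlap, and Acta2 stayed between 0.217 and 1.15 CPM. WT spheroids also differed between tables. In Ctrl, Ezr read 31.9, 49.4 and 54.2 CPM and Tagln2 62.7, 71.7 and 70.0, below the 72.4 to 96.6 and 111 to 116 of 3D WT. Acta2 read 0.791, 0.381 and 0.365 CPM in Ctrl, far below the 7.57 to 10.2 of 3D WT and the 5.33 to 6.62 of rescue WT. The Tns1 range in Ctrl took in the 142 to 231 CPM of the libraries labelled 3D Cxcl5-/-. The cause was not tested.

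**Figure D5:**
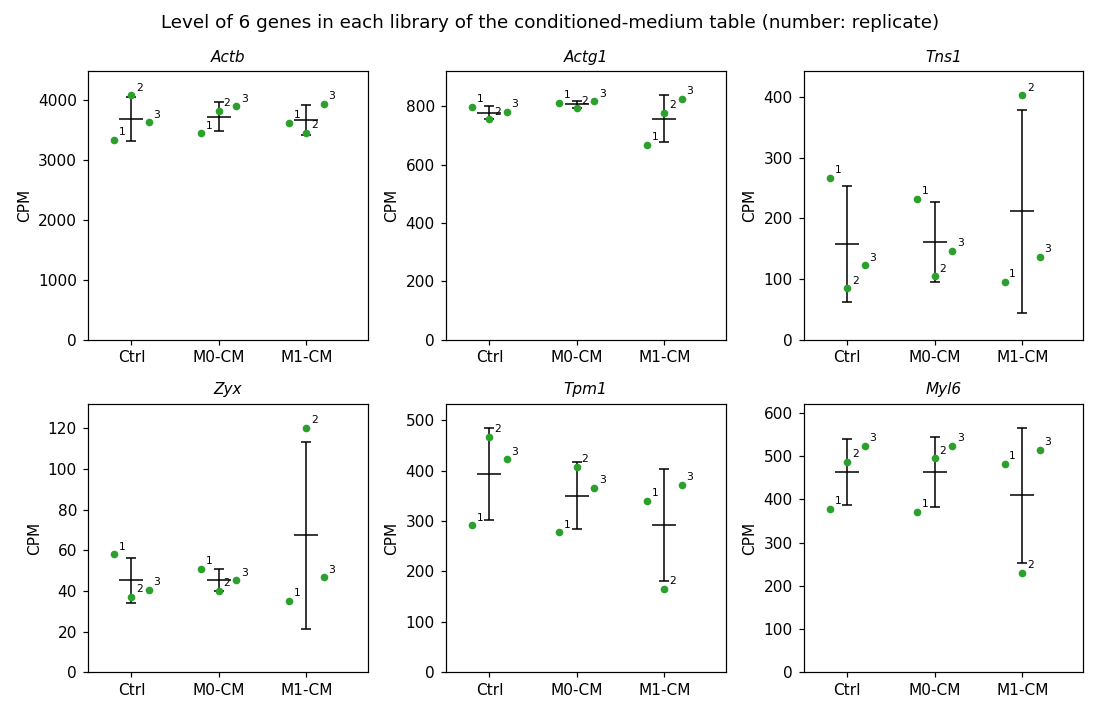
CPM (vertical axis, from 0) of 6 genes in each spheroid library of the macrophage medium table (points, with the replicate number), by group (horizontal axis); the long dash is the mean and the whisker 1 SD, n = 3. The groups overlap for all 6 genes, and M1-CM replicate 2 is the highest library for Tns1 and Zyx and the lowest for Tpm1 and Myl6.

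Other genes of the same pathways also moved in both directions. Over all genes the shares called higher and lower were 19.7% and 25.3% in the libraries labelled 3D Cxcl5-/- against 3D WT, 17.6% and 24.3% in rescue Cxcl5-/- against WT, 20.5% and 15% with Hif1a OE and 21.6% and 18% with Myc OE, against which the counts below are to be read. Of 43 other focal adhesion genes, 12 of 41 tested rose and 12 fell in the libraries labelled 3D Cxcl5-/- against 3D WT (median 0.02), led by Tns4 (2.60, adjusted p = 1.65e-07) and Synpo (2.06, adjusted p = 5.25e-07) upward and Csrp2 (-2.34, adjusted p = 1.17e-08) and Fhl2 (-2.30, adjusted p = 6.98e-08) downward. In rescue Cxcl5-/- against WT, 15 of 42 tested rose and 10 fell (median -0.03), with Ablim3 at 6.53 to 7.14 CPM against 0.396 to 0.521 and Fhl2 at 3.92 to 4.26 against 32.6 to 40.2. With Hif1a OE 9 of 42 tested rose and 17 fell (median -0.37), and with Myc OE 9 of 42 tested rose and 22 fell (median -0.47), where Csrp2 led the genes that rose with Myc OE (1.48), Fhl2 those that rose with Hif1a OE (2.13), and Ablim3 fell to 0.181 to 0.297 CPM with Hif1a OE and 0 to 0.152 with Myc OE.

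Of 47 other genes of actin assembly and turnover, 7 of 46 tested rose and 17 fell in the libraries labelled 3D Cxcl5-/- (median -0.10), with the bundler Pls1 (-3.54, adjusted p = 2.36e-07) and thymosin β4, Tmsb4x (-3.26, adjusted p = 5.18e-08), falling most and the formins Diaph2 (1.12, adjusted p = 0.000794) and Inf2 (1.05, adjusted p = 0.000672) rising most. In rescue Cxcl5-/- against WT 13 of 46 tested rose and 16 fell, with Hif1a OE 16 of 46 tested rose and 16 fell, and with Myc OE 14 of 46 tested rose and 22 fell (median -0.15, -0.04 and -0.37). Pls1 read 0.27 to 0.284 CPM in rescue Cxcl5-/- and 5.13 to 5.65 with Hif1a OE, beside 4.98 to 6.49 in WT. Lcp1 was listed at 0 counts in both rescue Cxcl5-/- libraries and at 35 to 52 counts in WT, and Fhod3 fell with Hif1a OE (-2.49) and Myc OE (-2.37).

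Of 9 names in the SRF cofactor list, 7 were tested in the rescue table. Mrtfa, an actin-sensing SRF coactivator, was higher in the libraries labelled 3D Cxcl5-/- (0.70) and in rescue Cxcl5-/- (1.14) and lower with Hif1a OE (-1.11) and Myc OE (-1.48), and Elk4 was higher in the first and second (0.90 and 0.85). Fhl2, which binds SRF, was lower in both (-2.30 and -3.16). The lists hold genes chosen with results of these data known, and their counts are a description.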

How the data were processed

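RNA-seq was done on 31 samples of Panc02 cells. The authors aligned stranded total RNA reads to mm10 with HISAT2 and used StringTie for assembly and read counts; versions and the annotation release are not given in the sources used here. They deposited 3 tables of raw counts per gene, not normalized. Where a symbol had several entries, the entry with the highest total was used.

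Groups came from the sample labels. In each table all groups were fitted together with edgeR 4.0.16 (quasi-likelihood test, TMM factors, filterByExpr by group, R 4.3.3), with Benjamini-Hochberg adjustment over all genes tested and a threshold of 0.05; the standard error is the absolute log2 fold change over the square root of F. Scripts were tested on simulated data with 200 changed genes. Lengths came from GENCODE M21 and promoters from RefSeq. Alternatives were DESeq2 1.42.0 (Wald test, size factors), library totals, no filter, at least 10 counts in every sample, a log2 fold limit of 1, the groups compared alone, summed entries, a replicate block, each library left out and, added after the data were seen, an offset for length and GC content (lowess span 0.3). Values by sample are given for Actb, Actg1, Acta2 and Srf and, in each role, for the 2 genes with the largest called change in 3D WT against 2D WT, 3D Cxcl5-/- against 3D WT or either overexpressing group against rescue Cxcl5-/-. Same-numbered samples of Ctrl and M0-CM deviated together in every pair (correlations 0.255 to 0.588). Those of 3D WT and 3D Cxcl5-/- (0.033 to 0.183) were also positive in every pair, but lower. Rescue WT and rescue Cxcl5-/- gave 0.043. With 2 libraries per group the deviations mirror each other, so the second pair repeats the first and adds nothing. The counts of 1 gene list are not reported here. The members and lists were chosen with earlier results of these data known. Total counts ran from 41542533 to 78498230 per library.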

Additional observations from a re-analysis of the deposited data

Results flagged for a closer look

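For 22 of the 40 genes the genotype effect (Cxcl5-/- minus WT) differed between 3D and 2D culture by the test of that difference in edgeR's quasi-likelihood fit. The difference of the log2 effects was positive for 5 of them, Acta2 1.71, Tns1 1.48, Actn1 0.73, Rdx 0.37 and Lima1 0.34. It was negative for 17, Ezr -1.56, Actg1 -0.98, Tpm4 -0.97, Tpm2 -0.84, Tagln2 -0.83, Myl12a -0.73, Pfn1 -0.73, Cfl1 -0.72, Actb -0.69, Tpm3 -0.62, Rock2 -0.59, Cald1 -0.58, Tpm1 -0.57, Arpc2 -0.53, Pxn -0.50, Fscn1 -0.49 and Arpc1b -0.43. The 2D effects were, for example, 0.51 for Acta2, 0.23 for Tns1 and -0.03 for Ezr, and the 3D libraries labelled Cxcl5-/- carried more Cxcl5 RNA than 3D WT. With library totals 7 positive and 5 negative differences passed the threshold. The calls of Arpc1b, Fscn1, Lima1, Pxn, Rdx and Tpm1 ended when 1 library was left out: Arpc1b without 2D WT replicate 2, or 2D Cxcl5-/- replicate 1, or 3D Cxcl5-/- replicate 2; Fscn1 without 2D WT replicate 1 or 2, or 2D Cxcl5-/- replicate 1, 2 or 3, or 3D WT replicate 1; Lima1 without 2D WT replicate 1, 2 or 3, or 2D Cxcl5-/- replicate 2 or 3, or 3D WT replicate 1, 2 or 3, or 3D Cxcl5-/- replicate 2 or 3; Pxn without 2D Cxcl5-/- replicate 1; Rdx without 2D WT replicate 1 or 2, or 2D Cxcl5-/- replicate 2 or 3, or 3D WT replicate 1, 2 or 3, or 3D Cxcl5-/- replicate 1 or 3; Tpm1 without 2D Cxcl5-/- replicate 1, or 3D Cxcl5-/- replicate 2. A cause was not tested.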

How the results depend on the processing

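The counts of genes called were recomputed under other settings, given here as higher and lower. The cause of a change was not tested. With an absolute log2 fold change above 1 they were 1 and 1 for 3D WT against 2D WT, 2 and 6 for 3D against 2D Cxcl5-/-, 0 and 0 for 2D Cxcl5-/- against 2D WT, 3 and 3 for 3D Cxcl5-/- against 3D WT, 2 and 1 for the interaction, 3 and 2 for rescue Cxcl5-/- against WT, 5 and 5 for Hif1a OE against Cxcl5-/-, 6 and 8 for Myc OE against Cxcl5-/-, 0 and 2 for Hif1a OE against WT, 3 and 5 for Myc OE against WT, 3 and 0 for Myc OE against Hif1a OE. Library totals gave 3 and 24 for 3D WT against 2D WT, 10 lower for 3D Cxcl5-/- against 3D WT, 5 lower for the interaction, 2 higher for Hif1a OE against WT, and 4 and 23 for Myc OE against WT. With no filter there was 1 higher for 2D Cxcl5-/- against 2D WT and 11 lower for the interaction, and with only the groups compared 2 lower for the former. At least 10 counts in every sample gave 7 higher for 3D against 2D Cxcl5-/-, 3 higher for Hif1a OE against WT, and 5 and 22 for Myc OE against WT. DESeq2's Wald test gave 3 higher for Hif1a OE against WT and 22 lower for Myc OE against WT, and DESeq2 size factors 3 higher for the former. The length and GC offset, added after the data were seen, gave 8 higher for 3D WT against 2D WT, 2 lower for 2D Cxcl5-/- against 2D WT, 2 higher for Hif1a OE against WT, and 5 and 23 for Myc OE against WT. All other counts, summed entries of one symbol included, stayed within 1.5 times.

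Single genes turned sign with library totals in 3D Cxcl5-/- against 3D WT (Flna 0.27, Fscn1 0.10, Cnn3 0.17, Vcl 0.39, Zyx 0.0834, Tln1 0.13 and Rock1 0.12), Myc OE against Cxcl5-/- (Cnn2 -0.0034, Vasp -0.0487 and Arpc2 -0.23) and Myc OE against WT (Vasp -0.0067). With the length and GC offset they did in rescue Cxcl5-/- against WT (Flna -0.37, Myh9 -0.24, Tln1 -0.40 and Rock1 -0.26), Hif1a OE against Cxcl5-/- (Actg1 -0.22, Flna 0.23, Tpm4 -0.17, Tln1 0.19, Arpc2 -0.27 and Rock2 0.0028), Myc OE against Cxcl5-/- (Actb -0.16, Myl6 -0.0369, Tln1 0.18 and Arpc2 -0.42), Hif1a OE against WT (Srf -0.16) and Myc OE against WT (Myl6 -0.12 and Pfn1 -0.48).

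Leaving out each library in turn, the counts ran, for higher and lower, 4 to 6 and 11 to 15 in 3D WT against 2D WT; 2 to 7 and 24 to 26 in 3D against 2D Cxcl5-/-; 0 to 2 and 0 to 1 in 2D Cxcl5-/- against 2D WT; 5 to 7 and 19 to 22 in 3D Cxcl5-/- against 3D WT; 3 to 6 and 13 to 20 in the interaction; 7 and 15 to 17 in rescue Cxcl5-/- against WT; 15 to 16 and 12 to 13 in Hif1a OE against Cxcl5-/-; 13 to 16 and 13 to 14 in Myc OE against Cxcl5-/-; 2 to 4 and 10 to 13 in Hif1a OE against WT; 5 to 8 and 12 to 16 in Myc OE against WT; 7 to 8 and 8 to 12 in Myc OE against Hif1a OE, and were 0 with macrophage medium. The 2D count higher was 0 without 2D WT replicate 1 or 2 or 2D Cxcl5-/- replicate 2 or 3 and 1 without 2D Cxcl5-/- replicate 1, and the count lower 0 without the last.

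Replicate numbers are shared by the labels, but same-numbered samples deviated together only in places. Correlations were 0.588, 0.457 and 0.255 between Ctrl and M0-CM, and -0.363 to 0.361 between M1-CM and either. They ran from -0.242 to 0.315 in the 2D and 3D table and from -0.102 to 0.262 in the rescue table. The labels state no pairing, and a shared deviation does not establish it. None of the 40 genes was called in M0-CM against Ctrl with the replicate block either. With the replicate block the 3D genotype counts were 7 and 23 and the interaction counts 4 and 19, and all counts stayed within 1.5 times. Groups of 2 or 3 libraries limit what could be called, and Tagln, Cnn1, Myl9 and Myh10 rest on low counts.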
